A study of Homo sapiens with 6 samples.

Results

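The integrin beta subunits were examined in THP-1, a line of human monocytic leukaemia cells, before and after treatment with PMA (phorbol 12-myristate 13-acetate), a phorbol ester and direct activator of protein kinase C. The members are the 8 genes named ITGB1 to ITGB8, taken by name, out of 35042 named or numbered genes. A row was read for 7 of them, and ITGB6 was not analysed here. RNA-seq of wild-type THP-1 cells gave 6 libraries, 3 from untreated cells and 3 from PMA-treated cells, all of the same single cell line. How much PMA these cells received, and for how long, is not stated for this experiment. The summed counts per library were between 61547700 and 88227830 in the untreated group and between 64361886 and 65698834 in the PMA group. PMA replicates 2 and 3 lay closest together, with a median difference of 0.08 on the log2(CPM + 1) scale (CPM, counts scaled to library size) over tested genes against 0.11 to 0.20 for the other pairs of a group, and each was kept as 1 library.

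Integrins are cell surface receptors built from 1 alpha and 1 beta chain. Talin and kindlin bind the cytoplasmic tail of most beta chains. Through this tail the receptor is linked to actin and switched between a low and a high affinity state. Beta2 (CD18) is the leukocyte chain, shared by LFA-1, Mac-1 and the CD11c and CD11d receptors. Beta1 forms the broad family of fibronectin, collagen and laminin receptors, beta3, beta5, beta6 and beta8 join the alphaV chain (beta3 also joins alphaIIb on platelets), beta7 joins alpha4 or alphaE for homing to and retention in mucosa, and beta4 joins alpha6 in the hemidesmosomes of epithelia. Monocytes that become macrophages turn from floating to adherent cells, and adhesion after a phorbol ester is a standard readout of this change in THP-1.

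The labelled cell type was checked first on its marker genes. Of 14 monocyte and macrophage markers, 11 reached the expression minimum (FPKM, fragments scaled to gene length and sequencing depth, at or above 1 in 3 or more libraries), and CD14, CD86 and MPO were under it. Their summed FPKM was between 341 and 349 without PMA and between 600 and 688 with it. Of the 10 megakaryocyte and platelet markers, which matter here because beta3 is a platelet chain, 9 had a row and 1 reached the minimum, with a summed FPKM from 1.29 to 3.04 without PMA and from 2.24 to 3.82 with it. GP9 and PPBP were at 0 in the untreated libraries. With PMA, PPBP was at 0, 0.405 and 0.249 FPKM and GP9 at 0, 0 and 0.0985 in replicates 1 to 3. GP1BA, the marker that reached the minimum, was between 0.771 and 0.905 without PMA and between 1.16 and 1.58 with it. GP1BB was at 1.69 in untreated replicate 2 and 1.10 in PMA replicate 3.

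All 5 beta subunits that could be tested rose with PMA, and none fell. They were ITGB1, ITGB2, ITGB3, ITGB5 and ITGB7, with rises from 1.73-fold to 22.1-fold, and each was called by edgeR's quasi-likelihood test at a Benjamini-Hochberg adjusted p under 0.05. Of the 12947 genes tested, 32.7% were called higher and 32.8% lower, with a median log2 fold change of -0.01. ITGB3 and ITGB7 reached the expression minimum only through the PMA libraries, so their presence among the tested genes already required a high value there, and the share of 5 of 5 is not a result about the family. ITGB1, ITGB2 and ITGB5 reached it in both groups. ITGB4 and ITGB8 were under the minimum in both groups and were not tested. In bulk RNA, more cells carrying a transcript and more transcript in each cell cannot be told apart, and p-values measure the spread between these libraries, which the labels do not describe as separate cultures.

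ITGB2 had the highest FPKM of the beta subunits in both states and rose 7.53-fold. It encodes the CD18 chain of the leukocyte integrins and lies on the minus strand of chromosome 21 at chr21:44885953-44928873 (hg38). Its FPKM was 21.4, 20.9 and 18.2 in untreated replicates 1 to 3 and 161, 140 and 143 in PMA replicates 1 to 3. Every PMA library was far above every untreated one, and the spread within each group was small beside the gap between them, at 20.1 ± 1.71 and 148 ± 11.3 FPKM (SD, n = 3 in each group). The log2 fold change was 2.91 with a standard error of 0.09, and the adjusted p from edgeR was 2.49e-07.

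An antisense transcript, ITGB2-AS1, overlaps 7823 bases of ITGB2 on the opposite strand. Its FPKM was 0.357, 0.163 and 0.381 without PMA and 6.85, 4.37 and 4.94 with it. The log2 fold change was 4.2 (standard error 0.36) at an adjusted p from edgeR of 2.84e-05. ITGB2-AS1 reached the expression minimum only through the PMA libraries, so its test already required a high value there. The sources used here do not say whether counting used strand, so reads of the pair cannot be fully separated. The counts given to ITGB2-AS1 amounted to 0.493% of those given to ITGB2 in the untreated group and 1.26% in the PMA group. LINC01547, a noncoding RNA within 5 kb of ITGB2, also rose, by 3.10 on the log2 scale (adjusted p from edgeR 1.60e-06).

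The alpha chains that pair with beta2 did not move alike. ITGAX (CD11c) rose from 4.76 ± 0.662 to 46.0 ± 0.241 FPKM, a log2 fold change of 3.31, and ITGAL (CD11a, the alpha chain of LFA-1) from 2.51 ± 0.205 to 13.6 ± 0.965, a log2 fold change of 2.47 (adjusted p from edgeR 2.24e-07 and 5.07e-07). ITGAM (CD11b, the alpha chain of Mac-1) was at 2.15 ± 0.182 FPKM without PMA and 2.10 ± 0.200 with it, and its log2 fold change of 0.00 had a standard error of 0.12 and an adjusted p of 0.996. ITGAD stayed below an FPKM of 0.132 in all 6 libraries. The summed FPKM of these 4 partners went from 9.42 to 61.7 on average, and ITGB2 was 2.12 to 2.17 times that sum in untreated libraries and 2.32 to 2.55 times in PMA libraries. These ratios of ITGB2 to its partners did not overlap between the groups.

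**Figure D1:**
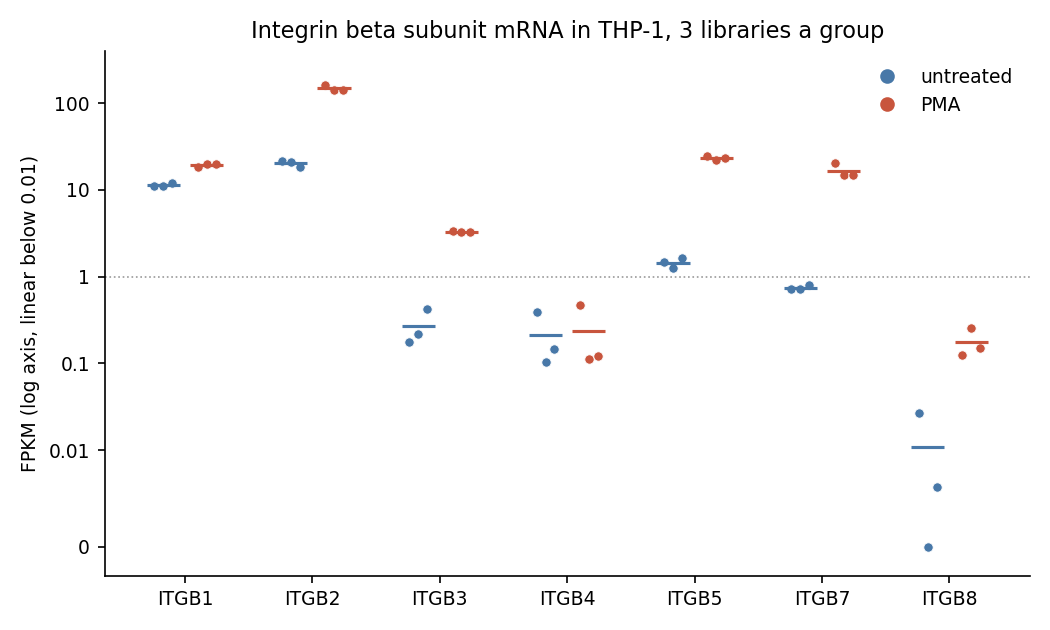
FPKM of the 7 beta subunits in each library, on an axis that is logarithmic above 0.01 and linear below it, with untreated libraries in blue, PMA libraries in red, a bar at each group mean and a dotted line at an FPKM of 1. ITGB2 is highest in both groups, ITGB4 is the subunit whose groups overlap, and ITGB8 is at 0 in untreated replicate 2.

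ITGB5, which joins alphaV to form a vitronectin receptor, rose 16.3-fold. It lies on the minus strand at chr3:124761948-124901418. Its FPKM was 1.47, 1.25 and 1.63 before PMA and 24.2, 21.9 and 23.2 after, in replicates 1 to 3 of each group. The groups were widely separated, and the PMA libraries were close together, with a coefficient of variation of 5.06%. The log2 fold change was 4.02 with a standard error of 0.13 and an adjusted p from edgeR of 2.23e-07. Only 1.55% of all tested genes had a log2 fold change as large or larger.

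ITGAV, the alphaV chain that ITGB5 needs as a partner, rose less, from 1.34 ± 0.0600 to 3.95 ± 0.493 FPKM, a rise of 1.59 on the log2 scale (standard error 0.11), with an edgeR adjusted p of 8.11e-06. The ratio of ITGB5 to ITGAV in FPKM was between 0.967 and 1.23 in untreated libraries and between 5.21 and 7.0 in PMA libraries. This places the mRNA of the beta chain near that of its alpha chain before PMA and several-fold above it after. ITGAV is shared with ITGB1, ITGB3 and ITGB8, so the ratio is not one of assembled receptors.

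ITGB7 had the largest fold change of the family, 22.1-fold. It encodes the beta chain of alpha4beta7, which binds MAdCAM-1 on gut vessels, and of alphaEbeta7, which binds E-cadherin, and lies on the minus strand at chr12:53191323-53207281. Its FPKM was 0.730, 0.723 and 0.791 before PMA and 20.2, 14.9 and 14.7 after. PMA replicate 1 stood above the other two, and all PMA libraries were far above the untreated ones. The log2 fold change was 4.46 with a standard error of 0.16 (adjusted p from edgeR 4.10e-07), and 1.17% of all tested genes had one as large or larger. ITGB7 reached the expression minimum only through the PMA libraries, so its test and this rank already required a high value there. The deposited count of ITGB7 was between 231 and 298 without PMA and between 4387 and 6115 with it.

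Neither alpha partner of beta7 passed the test. ITGA4 was at 16.8 ± 1.11 FPKM without PMA and 20.0 ± 2.76 with it (log2 fold change 0.29, standard error 0.11, adjusted p from edgeR 0.0524), and ITGAE at 0.903 ± 0.133 and 1.13 ± 0.122 (log2 fold change 0.36, standard error 0.16, adjusted p 0.0894). ITGB7 was 0.0386 to 0.0446 times the summed FPKM of ITGA4 and ITGAE without PMA and 0.642 to 1.11 times with it. The beta7 mRNA went from a small share of its partners' level to about their level. Nearly all of the partner sum is ITGA4, which is shared with ITGB1, so the ratio is not one of assembled receptors. ITGB7 overlaps ZNF740, a zinc finger gene on the opposite strand, by 3820 bases, and ZNF740 rose by 0.85 on the log2 scale (adjusted p from edgeR 0.000542). RARG, a retinoic acid receptor gene within 5 kb, rose by 2.06 (adjusted p 0.000140).

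ITGB3 encodes the beta chain of alphaVbeta3 and of the platelet fibrinogen receptor, and lies on the plus strand at chr17:47253827-47313743. Its FPKM was 0.177, 0.218 and 0.421 before PMA and 3.36, 3.25 and 3.24 after. Untreated replicate 3 was the highest of its group, and the PMA libraries were nearly equal and all far above it. ITGB3 reached the expression minimum only through the PMA libraries, so its test already required a high value there. The log2 fold change was 3.63 with a standard error of 0.32 (adjusted p from edgeR 3.17e-05), a 12.3-fold rise, and without untreated replicate 3 it was 4.09. The same library was the only one of the 6 with reads of the fibroblast genes COL3A1 (2.60 FPKM) and LUM (0.327 FPKM), and their part in its ITGB3 level was not tested. Of the list of 10 fibroblast and endothelial markers, 8 had a row, and they did not all move alike. COL1A1 (0.408 FPKM), CDH5 (0.225) and KDR (0.0198) were also highest of the untreated group in replicate 3. PDGFRA was lowest of all libraries there (0.0394 FPKM). PDGFRB, at 0.186, was below untreated replicate 1 (0.288), and PECAM1, at 14.3, was below untreated replicate 2 (14.9).

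The platelet partner of beta3, ITGA2B, was at 0.0822 ± 0.0424 FPKM without PMA and 0.0912 ± 0.0132 with it and was under the minimum. ITGB3 was 0.122 to 0.291 times the summed FPKM of ITGA2B and ITGAV without PMA and 0.711 to 0.948 times with it. Nearly all of that sum is ITGAV.

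ITGB1, the beta chain of the fibronectin receptor alpha5beta1 and of the collagen and laminin receptors, rose least of the tested subunits, 1.73-fold. It lies on the minus strand at chr10:32887273-33005792. Its FPKM was 11.2, 11.1 and 12.0 before PMA and 18.4, 19.9 and 19.8 after. The groups did not overlap. The log2 fold change was 0.79 with a standard error of 0.08 (adjusted p from edgeR 5.59e-05), and 18.7% of all tested genes had one as large or larger.

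ITGB1P1, a pseudogene of ITGB1 on chromosome 19, carries sequence close to that of ITGB1. Its counts amounted to 3.79% of those of ITGB1 in the untreated group and 4.18% in the PMA group, and it rose by 0.95 on the log2 scale (standard error 0.12, adjusted p from edgeR 0.000279). How reads were split between the gene and its copy is uncertain, and with the copy's counts added to ITGB1 the call was kept. Of the 12 alpha chains that can pair with beta1, 7 were tested and 6 rose. Among those that rose, ITGA2 and ITGA6 reached the expression minimum only through the PMA libraries. ITGA5, the fibronectin receptor chain, rose from 17.8 ± 0.928 to 62.5 ± 0.653 FPKM (log2 fold change 1.85, adjusted p from edgeR 4.96e-07), and ITGA7, a laminin receptor chain, from 8.12 ± 1.16 to 19.2 ± 2.60 (log2 fold change 1.28, adjusted p 6.67e-05). ITGB1 was 0.228 to 0.269 times the summed FPKM of its 12 partners without PMA and 0.160 to 0.175 times with it. This ratio depends on the length used for FPKM, and the values imply a median of 15044 bases for ITGB1.

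**Figure D2:**
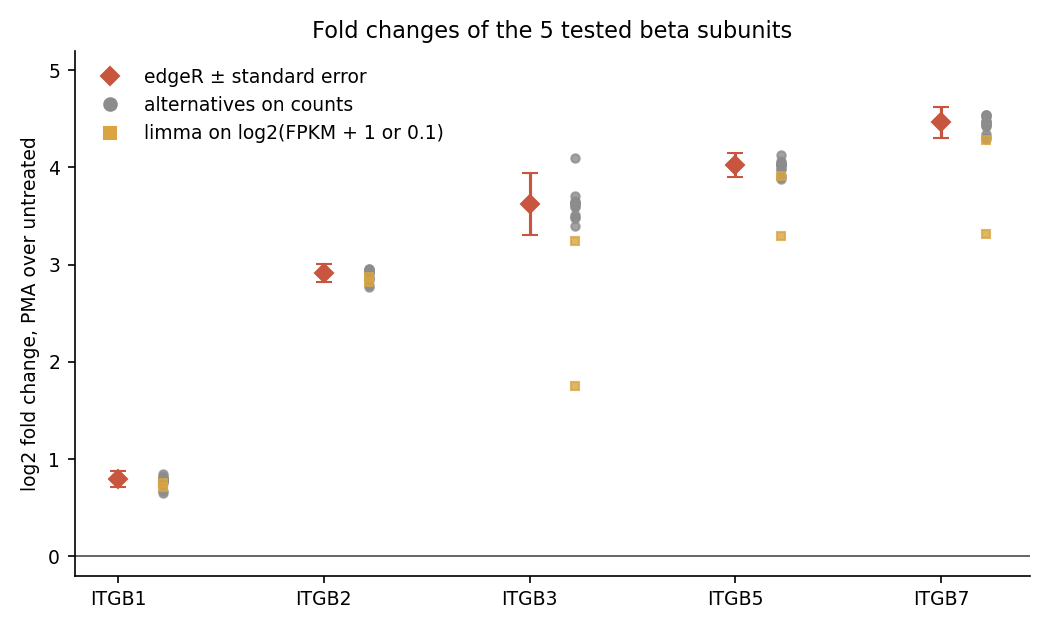
Log2 fold changes of PMA over untreated for the 5 tested beta subunits, with the edgeR estimate and its standard error as red diamonds, count-based alternatives as grey circles and the fits on log2(FPKM + 1) and log2(FPKM + 0.1) as yellow squares. All values are above 0, ITGB1 lies lowest at 0.79 and ITGB7 highest at 4.46, and the lowest yellow square of ITGB3 is at 1.76.

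ITGB8 is the beta chain of alphaVbeta8, which releases active TGF-beta from its latent complex, and lies on the plus strand at chr7:20330702-20410330. Its deposited counts were 34, 0 and 6 before PMA and 129, 261 and 154 after, which are 0.0265, 0 and 0.00621 FPKM and 0.125, 0.257 and 0.150 FPKM. Every PMA library was above every untreated one, and all were far under the minimum for the test. The exact permutation test on FPKM gave p = 0.1, the smallest that 3 libraries against 3 can give. The ratio of mean CPM was 4.03 on the log2 scale, and most of the untreated signal came from replicate 1, without which the ratio was 5.84.

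ITGB4 encodes the beta chain of the hemidesmosome receptor alpha6beta4 and lies on the plus strand at chr17:75721328-75757818. Its FPKM was 0.396, 0.104 and 0.145 before PMA and 0.473, 0.114 and 0.121 after. Replicate 1 was the highest of both groups, and the groups overlapped. The exact permutation p was 0.8, and the log2 ratio of mean CPM, 0.18, was -0.80 without PMA replicate 1 and 0.95 without untreated replicate 1. ITGB4 was the single subunit of the 7 whose FPKM ranges overlapped, and over all tested genes 70.4% had ranges that did not overlap.

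Epithelial markers were examined in the same libraries because ITGB4 is an epithelial chain. Of 9 such genes 8 had a row, and their summed FPKM ranged from 0.377 to 4.59 without PMA and from 0.461 to 3.28 with it. KRT19, a keratin of simple epithelia, was at 0.853 in untreated replicate 1 and 0.484 in PMA replicate 1 and at 0.0132 or less elsewhere. EPCAM, an epithelial adhesion molecule, was at 0.187 and 0.0720 in those libraries and at 0 in the other 4, while CDH1 (E-cadherin) was read in untreated replicate 1 alone, at 0.0825. The libraries with the highest ITGB4 were thus those with EPCAM and the highest KRT19. KRT8 (1.26 and 0.902 FPKM), KRT18 (2.07 and 1.59) and CLDN4 (0.124 and 0.233) were also highest of their groups in untreated and PMA replicate 1. The list did not move as one. KRT18 was also at 1.10 in untreated replicate 3 and 1.25 in PMA replicate 2, where ITGB4 was low. KRT5 was read in those libraries, near 0 (0.0449 and 0.0246), and not in either replicate 1. GRHL2 was highest in PMA replicates 2 and 3, also near 0 (0.0148 and 0.0107). The part of these markers in the ITGB4 values was not tested. ITGB4 also overlaps 6225 bases of GALK1, a galactokinase gene on the opposite strand, which was at 28.5 FPKM without PMA and 14.1 with it (log2 fold change -0.97, adjusted p from edgeR 7.48e-05). Reads of this pair cannot be fully separated either. The alpha partner ITGA6 was highest of the untreated group in replicate 1 too (0.547 against 0.102 and 0.286 FPKM) and rose with PMA to 1.25, 1.07 and 1.15 FPKM (log2 fold change 1.92, standard error 0.49, adjusted p 0.00940). ITGA6 reached the expression minimum only through the PMA libraries.

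**Figure D3:**
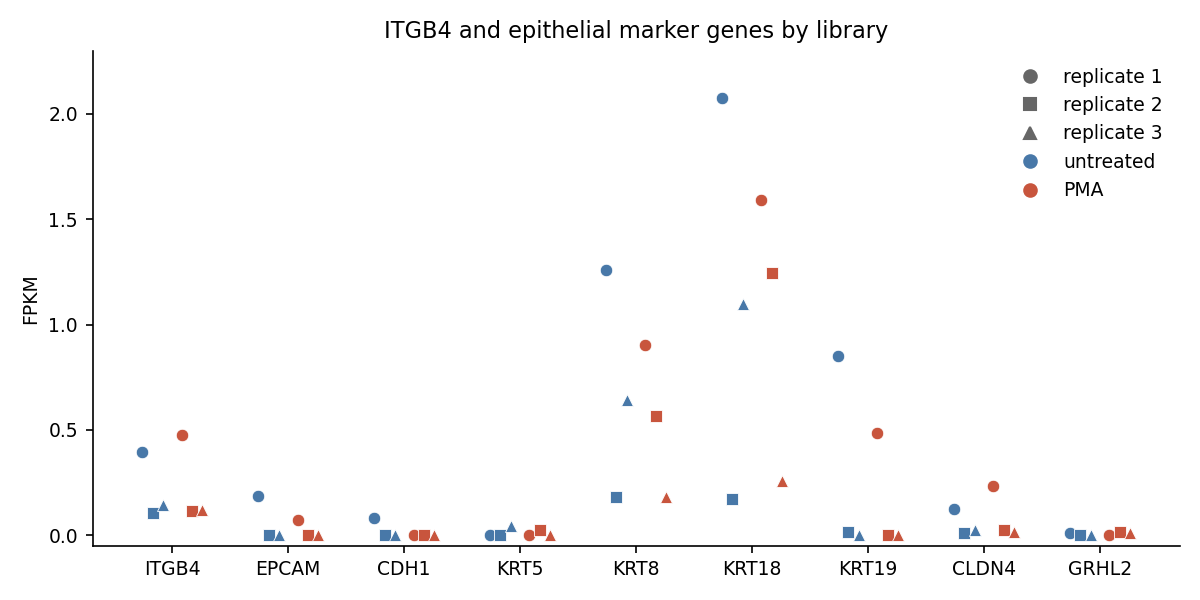
FPKM of ITGB4 and of the 8 epithelial marker genes with a row, by library, with untreated libraries in blue, PMA libraries in red and a symbol for each replicate number. The circles, replicate 1 of each group, are the highest points of ITGB4, EPCAM, KRT8, KRT18, KRT19 and CLDN4.

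The order of the subunits by FPKM changed with PMA. In untreated cells it was ITGB2, ITGB1, ITGB5, ITGB7, ITGB3, ITGB4 and ITGB8, and among neighbours only the ranges of ITGB3 and ITGB4 overlapped. In PMA-treated cells it was ITGB2, ITGB5, ITGB1, ITGB7, ITGB3, ITGB4 and ITGB8, and the ranges of ITGB1 and ITGB7 and of ITGB4 and ITGB8 overlapped. In FPKM, ITGB5 was thus above ITGB1, which had been 7.87 times as high on average before PMA. The place of ITGB1 depends on the length used for FPKM: the values imply a median of 15044 bases for ITGB1 against 7539 for ITGB2 and 4646 for ITGB7, and in CPM without a length term ITGB1 (170) was above ITGB2 (150) in untreated cells and still above ITGB5 in PMA-treated cells (295 against 157).

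The summed FPKM of the 7 subunits was 34.3 ± 1.12 without PMA and 211 ± 14.8 with it (mean and SD of 3 libraries each), a ratio of 6.15 (exact permutation p = 0.1, the smallest possible). ITGB2 held 58.7 ± 3.35% of this sum without PMA and 70.2 ± 0.432% with it, and ITGB1 33.4 ± 2.37% and 9.23 ± 1.03%. The level of ITGB1 mRNA rose while its share of the sum was smaller in all PMA libraries. Like its place in the order, the size of this share depends on the length used for FPKM. ITGB5 held 4.24 ± 0.628% and 10.97 ± 0.360%, and ITGB7 held 2.19 ± 0.175% and 7.82 ± 0.898%. ITGB3 held 0.802 ± 0.411% and 1.56 ± 0.0762%, ITGB4 0.620 ± 0.438% and 0.108 ± 0.0866%, and ITGB8 0.0312 ± 0.0390% and 0.0855 ± 0.0382%. For 6 of the 7 shares the groups did not overlap and the exact permutation p was 0.1 (0.117 after Benjamini-Hochberg adjustment over the 7). For ITGB8 the p was 0.3. With 3 libraries a group 0.1 is the smallest possible, so none can pass 0.05. Over all tested genes, 70.4% had ranges that did not overlap, a figure for FPKM and not for shares. The shares are parts of the same sum and not independent of each other. ITGB4 is among the 6, yet its own FPKM overlapped between groups (mean 0.215 without PMA, 0.236 with it, exact permutation p 0.8). Its smaller share reflects the larger sum and not a lower mean FPKM. The difference in share, PMA minus untreated, was -0.512 percentage points for ITGB4 and -0.262 without untreated replicate 1, and for ITGB8 it was 0.0543 and 0.0329 without PMA replicate 2.

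**Figure D4:**
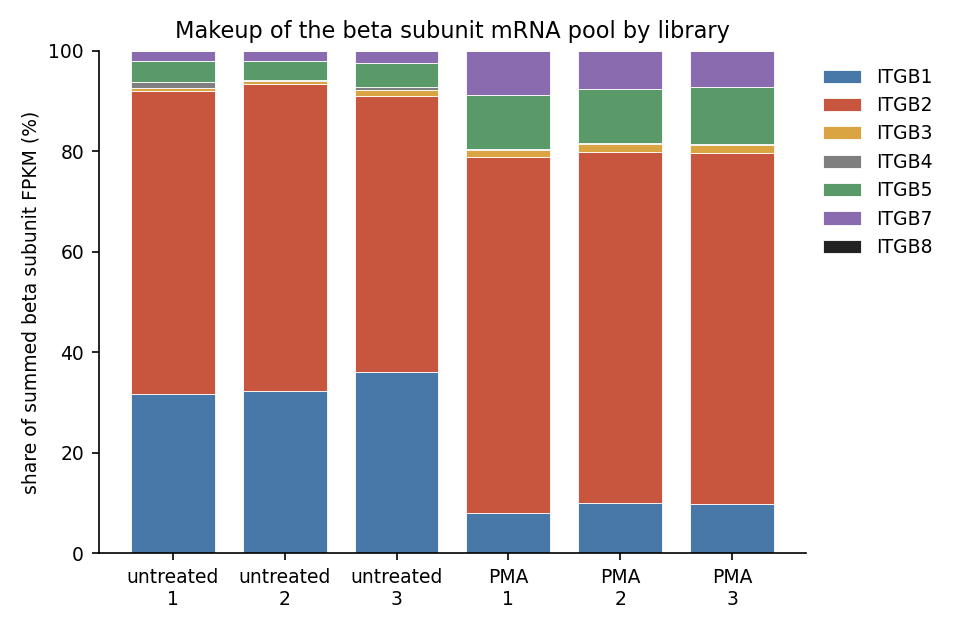
Percent of the summed beta subunit FPKM held by each subunit in each of the 6 libraries, as stacked bars from 0 to 100. ITGB2 takes between 54.9% and 60.9% of the untreated bars and between 69.9% and 70.7% of the PMA bars, and ITGB1 takes between 31.7% and 36.1% and between 8.06% and 9.94%.

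The promoters of the subunits with the most different responses are shown next, as the 250 bases before the RefSeq start site nearest to the 5′ end of the gene (GRCh38.p14), read 5′ to 3′ on the strand of the gene. RefSeq promoters were matched for 5 of the 8 members, with 8 start sites between them, and those of ITGB2, ITGB3 and ITGB4 are not shown. Capitals mark every match, on either strand, to GAGGAA (the core of the site of PU.1, a myeloid factor), GGGCGG (the GC box bound by SP1) or GCGTGGGCG (the EGR site, whose last bases can overlap a GC box). TGANTCA (the AP-1 or phorbol ester response element) and TATAAA were searched too. ITGB1, which rose least, is at chr10:32958231-32958480, ITGB5 at chr3:124901419-124901668, ITGB7, which rose most, at chr12:53207252-53207501 (all minus strand), and ITGB8, at a low level in both groups, at chr7:20330650-20330899 (plus strand).
ITGB1: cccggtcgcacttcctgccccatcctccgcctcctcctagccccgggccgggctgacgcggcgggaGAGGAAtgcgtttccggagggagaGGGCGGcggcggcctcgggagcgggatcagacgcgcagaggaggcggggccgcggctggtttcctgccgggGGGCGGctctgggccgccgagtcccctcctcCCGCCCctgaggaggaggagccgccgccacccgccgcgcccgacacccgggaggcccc
ITGB5: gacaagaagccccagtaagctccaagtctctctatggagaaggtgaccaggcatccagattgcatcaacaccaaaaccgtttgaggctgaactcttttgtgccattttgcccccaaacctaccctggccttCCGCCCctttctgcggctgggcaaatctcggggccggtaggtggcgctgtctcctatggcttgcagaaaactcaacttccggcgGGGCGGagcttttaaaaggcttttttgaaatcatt
ITGB7: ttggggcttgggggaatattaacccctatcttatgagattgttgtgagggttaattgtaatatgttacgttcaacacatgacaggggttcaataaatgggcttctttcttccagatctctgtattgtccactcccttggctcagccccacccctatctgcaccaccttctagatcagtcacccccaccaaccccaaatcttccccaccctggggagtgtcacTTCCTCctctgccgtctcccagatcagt
ITGB8: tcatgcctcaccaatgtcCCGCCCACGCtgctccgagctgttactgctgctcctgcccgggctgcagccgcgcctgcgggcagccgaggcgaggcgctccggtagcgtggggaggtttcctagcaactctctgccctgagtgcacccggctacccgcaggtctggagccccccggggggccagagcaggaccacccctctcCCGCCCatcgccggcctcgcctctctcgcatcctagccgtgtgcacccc

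No AP-1 letters were found in these 4 windows or in the other 4 of the family, against 6.57% of 35116 RefSeq promoters of the same length that hold them. The ITGB1 window shown is 78.4% GC, with a PU.1 core 184 bases before the start and GC boxes 160, 89 and 58 bases before it. ITGB1 has another start site, at 32935558, whose window is not shown. That window (41.6% GC) has neither a PU.1 core nor a GC box, and has 3 matches to TATAAA, at 102, 100 and 35. The ITGB5 window shown (52.8% GC) has GC boxes at 119 and 35 and no PU.1 core. ITGB5 has other start sites, whose windows are not shown. That of the site at 124887365 (75.2% GC) has PU.1 cores at 58 and 29 and GC boxes at 169, 139 and 17. The window of the site at 124887684 (56.4% GC) has none of the letters searched. The ITGB7 window (49.6% GC) has neither a GC box nor TATAAA and holds a PU.1 core on the other strand at 28. The ITGB8 window (71.2% GC) has an EGR match at 231 that overlaps a GC box at 232, and another GC box at 49. Over all promoters the PU.1 core was in 23.6%, the GC box in 42.6%, the EGR letters in 0.720% and TATAAA in 10.7%. These are matches of letters and not measured binding.

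For each tested subunit the genes with the most similar profile over the 6 libraries were sought, by the root mean square difference of log2(CPM + 1) after centring each gene on its mean. For ITGB2 they were SLC7A8, RASA4B and BHLHE40, with differences from 0.0499 to 0.0813. For ITGB5 they were DCSTAMP, needed for the fusion of macrophages into giant cells, the chemokine gene CCL2 and BATF2, with differences from 0.0960 to 0.102. ITGB7 was nearest to DHX58, ADRA2B and SPOCD1 (0.1297 to 0.146) and ITGB3 to GSG1, MERTK, a receptor for the uptake of dying cells, and LRRC3B (0.110 to 0.171). ITGB1 was nearest to EPC1, STK24 and PEAK1 (0.0116 to 0.0261). Near on this scale did not mean alike in fold change. The edgeR log2 fold changes of the 3 genes were from 0.79 to 0.84 for ITGB1 (itself 0.79), from 3.06 to 4.55 for ITGB2 (2.91), from 3.34 to 5.17 for ITGB3 (3.63), from 4.66 to 5.59 for ITGB5 (4.02) and from 4.26 to 9.65 for ITGB7 (4.46).

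**Figure D5:**
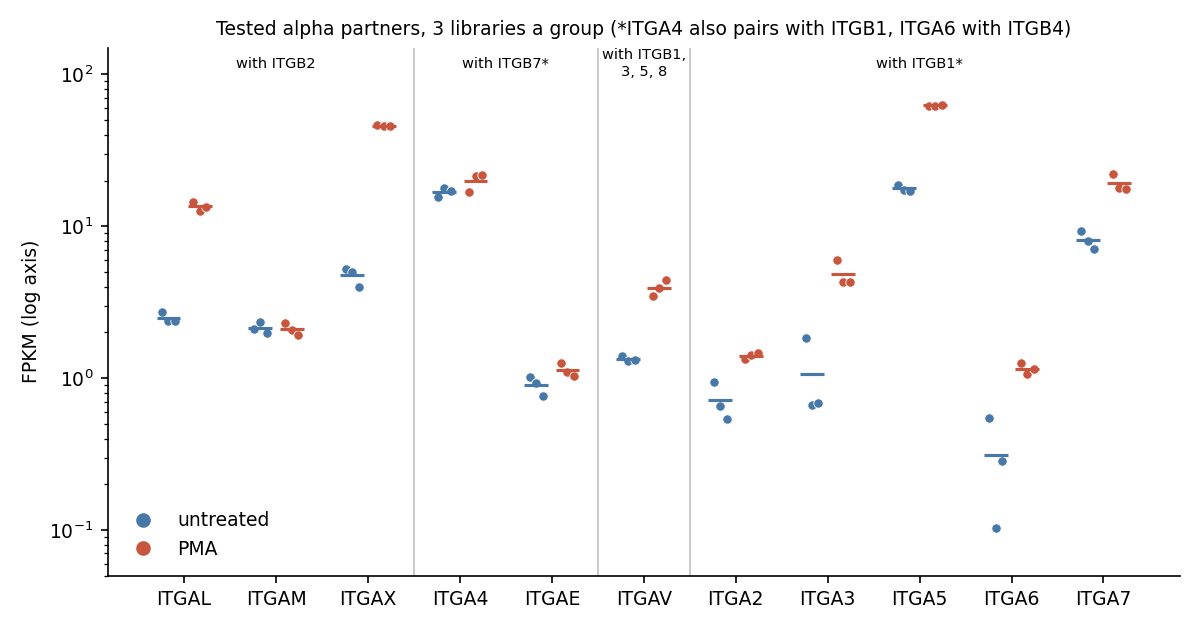
FPKM of the 11 tested alpha subunits that pair with the described beta subunits, by library, on a logarithmic axis, with untreated libraries in blue, PMA libraries in red, a bar at each group mean and the beta partner above each block. ITGAX and ITGAL rise with PMA, and the points of ITGAM lie between 1.92 and 2.35 in both groups.

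Of the 18 alpha subunits, 11 were tested, 8 were higher with PMA, none was lower and 3 were not called (ITGA4, ITGAE and ITGAM). Their median log2 fold change was 1.59, against -0.01 for all tested genes. ITGA2 and ITGA6, 2 of the 11, reached the minimum only through the PMA libraries. ITGA3, a laminin receptor chain that joins beta1, was at 1.84, 0.661 and 0.688 FPKM without PMA and 6.0, 4.33 and 4.28 with it (log2 fold change 2.23, adjusted p from edgeR 0.00128). ITGA2, the collagen receptor chain, rose by 1.01 on the log2 scale (adjusted p 0.00275).

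The mRNAs of listed integrin activators, brakes and filamins, not all of which bind the beta tail, were counted next. Of 12 tested activators, 8 were higher, 2 lower and 2 not called, with a median log2 fold change of 0.76. RAPGEF1, an exchange factor for RAP1, rose from 16.9 to 90.0 FPKM (2.45 on the log2 scale) and FERMT3, the kindlin of blood cells, from 4.22 to 19.9 (2.27), while RASGRP2, another exchange factor for RAP1, fell from 13.7 to 4.63 (log2 fold change -1.53). Of 7 brakes and filamins, 3 were higher, none lower and 4 not called, with a median of -0.07. DAB2, an adaptor that binds beta tails, rose from 2.94 to 14.8 FPKM (2.36 on the log2 scale) and RASA1, a RAS GTPase activating protein, from 6.62 to 21.99 (1.77). The adjusted p from edgeR of these 5 genes was between 1.94e-07 and 3.81e-05.

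Of 16 tested focal adhesion linkers, 11 were higher, 1 lower and 4 not called (median log2 fold change 0.62). TNS3, a tensin, rose from 12.9 to 62.4 FPKM (2.31) and LIMS1, the PINCH partner of integrin-linked kinase, from 6.52 to 30.5 (2.26), while PARVB, a parvin of the same complex, fell from 10.2 to 4.93 (log2 fold change -1.01). Of 9 tested kinases, 7 were higher and 2 lower (median 0.65). FGR was the 1 of the 9 that reached the minimum in 1 group only, through the PMA libraries, so its test already required a high value there. The SRC family kinase FGR rose from 0.125 to 1.53 FPKM (3.59) and SRC from 1.01 to 5.94 (2.58), and CSK, which restrains that family, fell from 67.3 to 42.1 (log2 fold change -0.64). The adjusted p from edgeR of these 6 genes was at most 0.000184.

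Among 31 ligands, 28 had a row, 12 were tested, 9 were higher, 1 lower and 2 not called, with a median log2 fold change of 1.47, and 5 of the 12 reached the minimum in 1 group only. SPP1 (osteopontin, a ligand of alphaVbeta3 and alphaVbeta5) rose from 0.635 to 27.8 FPKM, 5.47 on the log2 scale. VWF (von Willebrand factor, bound by beta3 receptors) was at 0.00924, 0 and 0 FPKM without PMA and 1.17, 1.20 and 1.36 with it. ICAM3, a ligand of LFA-1, fell from 5.38 to 3.68 (log2 fold change -0.51). The adjusted p from edgeR of SPP1, VWF and ICAM3 was at most 0.0137. SPP1 and VWF reached the minimum only through the PMA libraries, so their tests already required a high value there. The genes of latent TGF-beta, the cargo of alphaVbeta8, were tested for 3 of 7 and all 3 were higher (median 1.33), among them NRROS, which tethers latent TGF-beta on myeloid cells, from 26.9 to 91.6 FPKM (1.80 on the log2 scale, adjusted p 4.07e-06), and TGFB1 from 33.1 to 81.5 (1.33, adjusted p 1.38e-05). Of these 3 genes, 1 reached the minimum in 1 group only.

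Of 11 tetraspanins and lateral partners, 8 were higher, none lower and 3 not called (median log2 fold change 1.08). PLAUR, the urokinase receptor, which associates with integrins at the surface, rose from 4.005 to 42.7 FPKM (3.44) and CD53, a leukocyte tetraspanin, from 11.1 to 86.7 (3.00), with adjusted p from edgeR of 6.84e-07 and 1.89e-06. Each of these lists was drawn up by function, with earlier results of these data known. Their counts stand beside 32.7% higher and 32.8% lower for all tested genes, and this comparison is not an independent one.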

How the data were processed

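Poly(A) RNA of 3 untreated and 3 PMA-treated THP-1 libraries was measured by paired-end RNA-seq. The authors deposited estimated counts, which are whole numbers on no common scale, and FPKM, in which gene length and depth are divided out. Per the submitters' processing notes the build was hg38 and DESeq2 was used. Aligner, counting tool, annotation and use of strand: not given in the sources used here. Low counts pile up at multiples of 4, so what a count is worth in read pairs is not known, and dividing by 4 was an alternative.

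Features that share a name were reduced to the most highly counted one. The 12947 genes at or above an FPKM of 1 in 3 or more of the 6 libraries were tested with edgeR 4.0.16 (R 4.3.3, quasi-likelihood, TMM, treatment as the only term), with Benjamini-Hochberg adjustment over all of them. The standard error is the log2 fold change divided by the square root of F and is approximate. Members under the minimum, and shares, were compared by two-sided exact permutation tests. Alternatives used limma 3.58.1, DESeq2 1.42.0, other filters and scalings, and each library left out. The scripts were tested on simulated data.

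The members and lists were chosen with earlier results of these data known. Named genes were all members, their alpha partners, the 2 largest rises and the largest fall among called genes of each list, the 3 nearest profiles, and genes within 5 kb. Deviations of same-numbered libraries from their group means correlated at 0.521, 0.175 and 0.138, but untreated 2 with PMA 3 (0.290) and untreated 3 with PMA 2 (0.227) correlated more than the same-numbered pairs 2 and 3, and no label says that numbers share a culture. The reported values come from the fit without a block, and a fit with the number as a replicate block was an alternative.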

Additional observations from a re-analysis of the deposited data

How the results depend on the processing

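ITGB1, ITGB2, ITGB3, ITGB5 and ITGB7 were called higher under all 16 alternatives. Their log2 fold changes ranged from 0.65 to 0.85, from 2.77 to 2.96, from 1.76 to 4.09, from 3.30 to 4.13 and from 3.32 to 4.54, with adjusted p of at most 0.000664 (limma, edgeR or DESeq2). The value of 1.76 came from limma on log2(FPKM + 1), a scale that understates the change of low genes. With the replicate block, ITGB3 was at 3.71 in place of 3.63, and no call of a member changed. The limits lie in the low genes, ITGB4 with 54 to 222 counts and ITGB8 with 0 to 261. ITGB8 was called once the FPKM minimum was dropped (3.87, adjusted p 0.0233, edgeR) or replaced by filterByExpr (3.89, adjusted p 0.011), and these filters moved the median over the genes tested otherwise by -0.15 and -0.12. Leaving out 1 library moved the log2 ratio of ITGB8 between 3.45 and 5.84 and that of ITGB4 between -0.80 and 0.95, turning its sign, and the cause was not tested. The PMA against untreated ratio of ITGB4 was -0.15 and -0.02 without untreated replicates 2 and 3. Adding the counts of ITGB1P1 and ITGB2-AS1 to their genes was chosen after seeing the data.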

Other observations

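Several alpha subunits stayed under the expression minimum and entered no test. ITGA11, a collagen receptor chain, was at 0.106 ± 0.0172 FPKM without PMA and 0.919 ± 0.119 with it (mean and SD of 3 libraries each), and ITGA1, another collagen receptor chain, at 0.111 ± 0.0254 and 0.389 ± 0.0230. For both genes, and for ITGAD near 0, every PMA library was above every untreated one. Over all tested genes, 70.4% had FPKM ranges that did not overlap. The groups of ITGA2B, ITGA8 and ITGA10 overlapped. ITGA9 was at 0.116 ± 0.0193 and 0.153 ± 0.0418, with overlapping groups.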
